A study of Mus musculus with 2 samples.

Results

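Granins are acidic proteins packed with hormones into the dense core of secretory granules. In pancreatic islets they are stored and released together with insulin and glucagon. Several granins help the core to condense in the trans-Golgi network, and proteases cut several of them into smaller peptides. Ptprn and Ptprn2 encode IA-2 and IA-2β (phogrin), which span the granule membrane, carry a phosphatase domain with little or no activity on phosphotyrosine, and are autoantigens in type 1 diabetes. The 7 genes described here are the granins Chga, Chgb, Scg2, Scg3 and Vgf and these 2 phosphatases, taken by symbol from a fixed list among the 38924 genes of the deposited tables.

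RNA came from islets of the CAST/EiJ strain (CAST), inbred from castaneus mice caught in the wild, and of the C57BL/6J strain (B6), on which the mouse reference genome is built. All mice were male, 10 weeks old and fed chow, and the labels name no engineered allele and no drug. Islets were picked in buffer with 16.7 mM glucose. Those of 2 mice were pooled per strain and 250 went into each RNA library, so each strain has 1 library and no replicate. The series title names a search for modified proteins, and the rest of each islet pool went to protein work. With 1 library per strain nothing between strains was tested. All intervals below are 95% intervals for counting error alone, and reads are not independent molecules, so variation between mice is not in them.

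The libraries held 104324631 expected counts in CAST and 76600903 in B6, and both were quantified on the B6-based reference build. Any loss or misassignment of CAST reads on that build was not tested. It cannot be told apart from a strain difference in the ratios below. All 7 genes had counts in both libraries and passed the minimum of 100 counts over both, as did 14768 genes in all. The islet label was checked with markers: the 8 hormone genes made up 60.5% of transcripts in CAST and 56.6% in B6.

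Each gene had 1 transcript in the deposited tables, so its share of the gene was 100% in CAST and in B6 by construction, and the tables say nothing about splicing of these genes. The same holds for 4824 (32.7%) of the 14768 genes. GENCODE M21 annotates 7 transcripts for Scg3, 6 for Ptprn, 5 for Ptprn2, 4 for Vgf, 3 for Chga, 2 for Scg2 and 1 for Chgb.

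On GRCm38, Scg2 (ENSMUSG00000050711) lies on the minus strand of chromosome 1 from 79434669 to 79440120, and Ptprn (ENSMUSG00000026204) on the same strand from 75247027 to 75264502. Chga (ENSMUSG00000021194) lies on the plus strand of chromosome 12 from 102554969 to 102565028, and Ptprn2 (ENSMUSG00000056553) on the same strand from 116485720 to 117276849. Chgb (ENSMUSG00000027350) is at chromosome 2 from 132781278 to 132795079, Scg3 (ENSMUSG00000032181) at chromosome 9 from 75643189 to 75684056, and Vgf (ENSMUSG00000037428) at chromosome 5 from 137026392 to 137033351. The gene structures differ widely. The Scg2 and Vgf transcripts have 2 exons and a coding length of 1851 bases each, whereas Ptprn and Ptprn2 have 23 exons and coding lengths of 2943 and 3003 bases. Chga has 8 exons, Chgb 5 and Scg3 12. Ptprn2 spans 791130 bases of the genome, against 17476 for Ptprn.

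The cyclic AMP response element (CRE) is a classic element of granin promoters, bound by CREB. The search for it was planned for all 7 genes, whatever their direction between the strains. RefSeq promoter windows (GRCm38.p6, 250 bases before to 50 after each annotated start) were available for 6 of the 7 genes. They came to 7 windows, since Ptprn had 2. No window was available for Vgf, so its promoter was not searched. The full element TGACGTCA was in the windows of 2 genes, Scg2 and Chgb, and in 1.79% of all 32851 windows. Its first 5 letters, TGACG, searched on both strands and contained in every full element, were in those of 5 of the 6 genes. Of all windows 20.8% held them. The second Ptprn window held none, and these shares are per window whereas the 7 genes are counted by gene. No TGACG was found in the Ptprn2 window. Each line gives 30 bases, 5′ to 3′ on the strand that reads TGACG, with the 8 letters in the place of the element in capitals.
Scg2, chr1:79440076-79440105, minus strand: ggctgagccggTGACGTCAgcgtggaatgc
Chgb, chr2:132781559-132781588, plus strand: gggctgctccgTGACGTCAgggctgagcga
Chga, chr12:102554886-102554915, plus strand: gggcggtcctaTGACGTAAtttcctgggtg
Scg3, chr9:75684068-75684097, minus strand: cgctgggtcgcTGACGCCAtcctcacgcct
Ptprn, chr1:75264307-75264336, minus strand: ttacgccagtaTGACGCAAataggcataag
Ptprn, chr1:75264273-75264302, plus strand: caggcgtgcaaTGACGACAtctccaccccc
The capitals began 68 bases before the RefSeq start in Scg2, 72 in Chgb, 44 in Chga and 30 in Scg3. In GENCODE M21 the starts of Scg2 and Chgb are set further upstream, so that there their elements fall after the start. The GENCODE M21 start of Chga is set further downstream, and its capitals began 72 bases before that start. The letters TATAAA of the TATA box, on the gene's strand, were found in Chga among these windows and in 8.32% of all windows. They began 5 bases after the RefSeq start of Chga and 23 bases before its GENCODE M21 start. The E box CANNTG was in 5 of the 6 genes and in 72.3% of all windows. These are the letters of the B6-based reference. The CAST sequence was not used here, and a match says nothing about binding. A link between these elements and the ratios between the strains was not tested.

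The most abundant of the 7 genes was Scg2 in CAST and Chga in B6. Levels are given as TPM, the share of a gene's transcripts among all transcripts with length taken into account, so that genes can be compared. Scg2, the precursor of the peptide secretoneurin, had 6554 TPM in CAST (interval 6544 to 6564) and 2894 TPM in B6 (2886 to 2903). It ranked 5th of all genes in CAST and 14th in B6. Chga, the precursor of pancreastatin and other peptides, had 4043 TPM in CAST (4034 to 4052) and 8787 TPM in B6 (8770 to 8804), and ranked 11th in CAST and 5th in B6.

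Chgb and Scg3 formed a middle tier. Chgb, a granin that is also cut into peptides, had 453 TPM in CAST and 857 TPM in B6. Scg3, which binds Chga and cholesterol-rich granule membrane, had 548 TPM in CAST and 801 TPM in B6. Their order differed between the libraries, with Scg3 above Chgb in CAST (545 to 551 against 451 to 456) and below it in B6 (797 to 806 against 853 to 861). Vgf, a granin-like precursor known as a target of nerve growth factor, was by far the least abundant, with 19.9 TPM in CAST and 11.5 TPM in B6. It ranked 3435th in CAST and 6440th in B6.

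The phosphatase genes lay between the middle granins and Vgf. Ptprn2 had 185 TPM in CAST and 285 TPM in B6, and Ptprn 172 TPM in CAST and 175 TPM in B6. In CAST the intervals of the pair, 184 to 186 for Ptprn2 and 171 to 173 for Ptprn, came close without overlapping. The level of Ptprn2 depends on the transcript length used. The deposited counts and fractions imply 4754 bases for it, against 3201 bases for the same transcript in GENCODE M21, whereas for the other 6 genes the implied length was 0.971 to 1.03 times the GENCODE length. At the GENCODE length Ptprn2 would have 274 TPM in CAST and 424 TPM in B6. Ratios between the strains do not depend on this length.

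**Figure D1:**
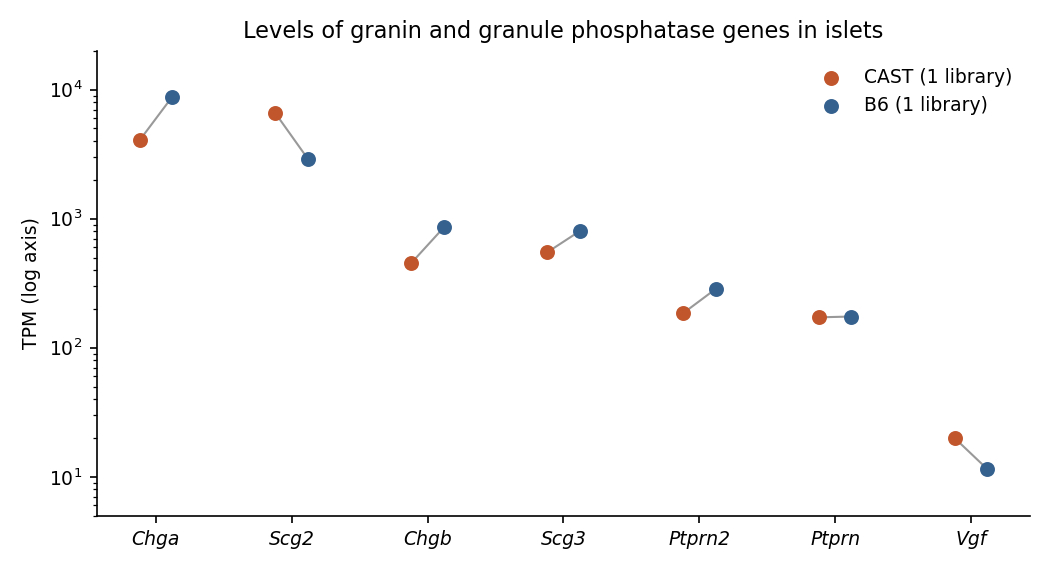
TPM of each gene (vertical log axis) in the CAST library (orange, left) and the B6 library (blue, right), 1 library per strain, genes ordered by B6 level, with grey lines joining the same gene. Scg2 and Vgf are higher in CAST, Chga, Chgb, Scg3 and Ptprn2 are higher in B6, and Ptprn is nearly level at 172 TPM in CAST and 175 TPM in B6.

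Between the strains, granin genes lay in both directions. In bulk RNA, fewer cells of a type cannot be told apart from less RNA per cell, and markers of islet cell types, given at the end, differed between the libraries as well. Counts were set against each other as a log2 ratio of CAST over B6 after TMM scaling, which matches the libraries on most genes; the median of all 14768 genes was 0.02 on this scale. Scg2 had 1584972 counts in CAST and 450672 in B6, a 2.88-fold higher level in CAST (log2 1.53, interval 1.52 to 1.53). Of all genes tested, 4.70% had a ratio as high or higher. Vgf had 4952 counts in CAST and 1836 in B6 and was 2.21-fold higher in CAST (log2 1.14, 1.06 to 1.22). These 2 genes were the members at least 2-fold higher in CAST, where 7.18% of all genes were. Vgf was under 2-fold with total counts (log2 0.99) and by TPM (0.75), which left Scg2 alone. On those scales 6.27% and 3.14% of all genes were at least 2-fold higher in CAST.

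Chga and Chgb were lower in CAST. Chga had 732767 counts in CAST and 1025152 in B6, a 1.71-fold lower level in CAST (log2 -0.77, -0.78 to -0.77), and 8.94% of all genes had a ratio as low or lower. Chgb had 121284 counts in CAST and 147607 in B6, a 1.49-fold lower level in CAST (log2 -0.57, -0.58 to -0.56). Scg3 was closer to equality, with 119606 counts in CAST and 112548 in B6, at log2 -0.20 (-0.21 to -0.19). None of the 7 genes was at least 2-fold higher in B6, where 5.99% of all genes were. By TPM Chga was past that fold, at log2 -1.12, as were 4.99% of all genes. The split of all 2-fold genes, 54.5% of them higher in CAST, moved to 44.2% with total counts and to 38.6% by TPM.

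The phosphatases differed little and in opposite directions. Ptprn had 59754 counts in CAST and 39044 in B6 (log2 0.32, 0.31 to 0.34), and Ptprn2 had 85605 counts in CAST and 85110 in B6 (log2 -0.28, -0.29 to -0.27). Both were within 1.5-fold, as were Scg3 and, narrowly, Chgb. Chgb passed 1.5-fold with total counts (log2 -0.73), with total counts without hormone and acinar genes (-0.60) and by TPM (-0.92). The direction of Ptprn depended on the scale: by TPM its log2 ratio was -0.02, on which all genes had a median of -0.26. An antisense gene, Gm28294, overlaps 186 bases of Ptprn exons, and without a stated strand setting its reads cannot be told apart from those of Ptprn.

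In all, 3 of the 7 genes, Scg2, Vgf and Chga, were past 1.5-fold in either direction, where 25.2% of all genes were. All members but Vgf are also among the 3211 genes with 10000 or more counts. In that class 2.99% of genes were past 2-fold towards CAST, 1.28% past 2-fold towards B6 and 11.4% past 1.5-fold either way. Of its 6 members, 1 (Scg2) was past 2-fold towards CAST and 0 towards B6, and 2 (Scg2 and Chga) were past 1.5-fold. The members' median log2 ratio was -0.20, with 3 genes above 0 and 4 below.

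**Figure D2:**
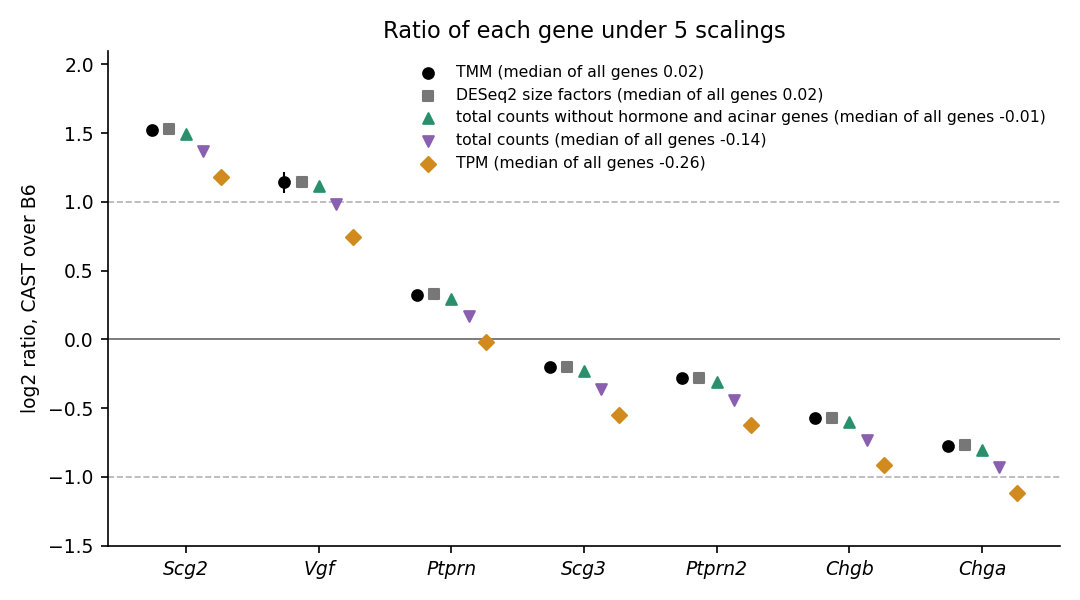
Log2 ratio of CAST over B6 (vertical axis) of each gene under 5 scalings of the 2 libraries, with 95% counting intervals on the TMM values and dashed lines at 2-fold. Scg2 and Vgf lie above 0 under all 5 scalings, Chga, Chgb, Scg3 and Ptprn2 lie below 0 under all 5, and Ptprn lies above 0 under 4 and at -0.02 by TPM.

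**Figure D3:**
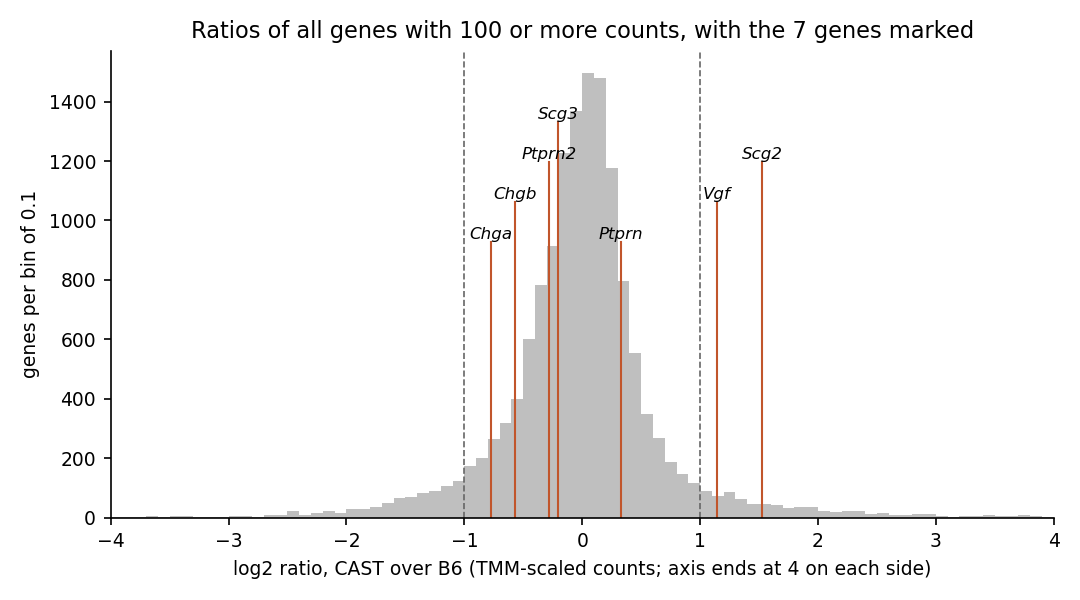
Histogram of the log2 ratio of CAST over B6 (horizontal axis) of 14768 genes in bins of 0.1 (vertical axis: genes per bin; the axis ends at 4 on each side), with orange lines at the 7 genes and dashed lines at 2-fold. Scg2 at 1.53 and Vgf at 1.14 lie past the upper dashed line, and Chga at -0.77 is the lowest of the 7.

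Scg2 and Chga changed places as the main share of the set. Scg2 was 54.7% of the summed TPM of the 7 genes in CAST and 21.0% in B6, and Chga was 33.8% in CAST and 63.6% in B6. Together the 7 genes made up 1.20% of transcripts in CAST and 1.38% in B6. Their share of counts was in the other order, 2.60% in CAST and 2.43% in B6, and the log2 ratio of their summed scaled counts was 0.25 whereas their median was -0.20. Without Scg2, a subset that was not planned in advance, the other 4 granins came to 0.506% of transcripts in CAST and 1.05% in B6. Most of this was Chga, with 4043 of 5065 TPM in CAST and 8787 of 10456 TPM in B6, and Vgf went the other way. Set against the hormones that granins are packed with, there were 10.8 Scg2 transcripts per 1000 hormone transcripts in CAST and 5.11 in B6. For Chga there were 6.68 in CAST and 15.5 in B6, and for all 7 genes 19.8 in CAST and 24.4 in B6.

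**Figure D4:**
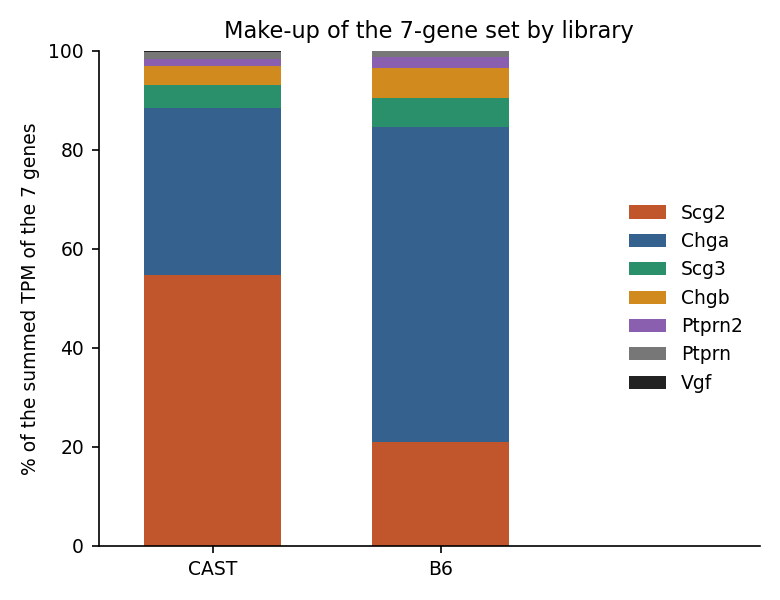
Share of each gene in the summed TPM of the 7 genes (vertical axis, percent) in the CAST library (left bar) and the B6 library (right bar), 1 library per strain. Scg2 fills 54.7% of the CAST bar and 21.0% of the B6 bar, and Chga fills 33.8% of the CAST bar and 63.6% of the B6 bar.

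Ratios of genes within a library do not depend on how the libraries are scaled to each other. There were 1.62 Scg2 transcripts per Chga transcript in CAST and 0.329 in B6, a 4.92-fold difference (log2 2.30, 2.29 to 2.31). Scg2 over Chgb was 14.5 in CAST and 3.38 in B6. Chgb over Chga was 0.112 in CAST and 0.0975 in B6, a 1.15-fold difference between the strains for these 2 chromogranins. Scg3 over Chga was 0.136 in CAST and 0.0912 in B6. There were 203 Chga transcripts per Vgf transcript in CAST and 766 in B6. Ptprn over Ptprn2 was 0.931 in CAST and 0.612 in B6, a 1.52-fold difference (log2 0.61, 0.58 to 0.63).

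Other genes of the secretory granule, such as those of prohormone convertases, vesicle proteins and synaptotagmins, had a median log2 ratio of -0.01. All 47 genes of this list passed the count minimum. Of these, 1 (2.13%) was past 2-fold towards CAST, beside 7.18% of all genes, and 0 were past 2-fold towards B6, beside 5.99%. The gene past 2-fold was Scg5, a small granin-family protein that is a chaperone of the prohormone convertase PC2. It had 153568 counts in CAST and 49944 in B6 (log2 1.33, 1.32 to 1.35). Next were Syt5, a synaptotagmin (log2 0.97, 0.90 to 1.03), and Tmed6, a p24 family transport protein (0.61, 0.47 to 0.76). The lowest were Pam, the peptide amidating enzyme (-0.92, -0.94 to -0.90), Syt13, another synaptotagmin (-0.91, -0.93 to -0.90), and Syt9 (-0.75, -0.85 to -0.64).

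**Figure D5:**
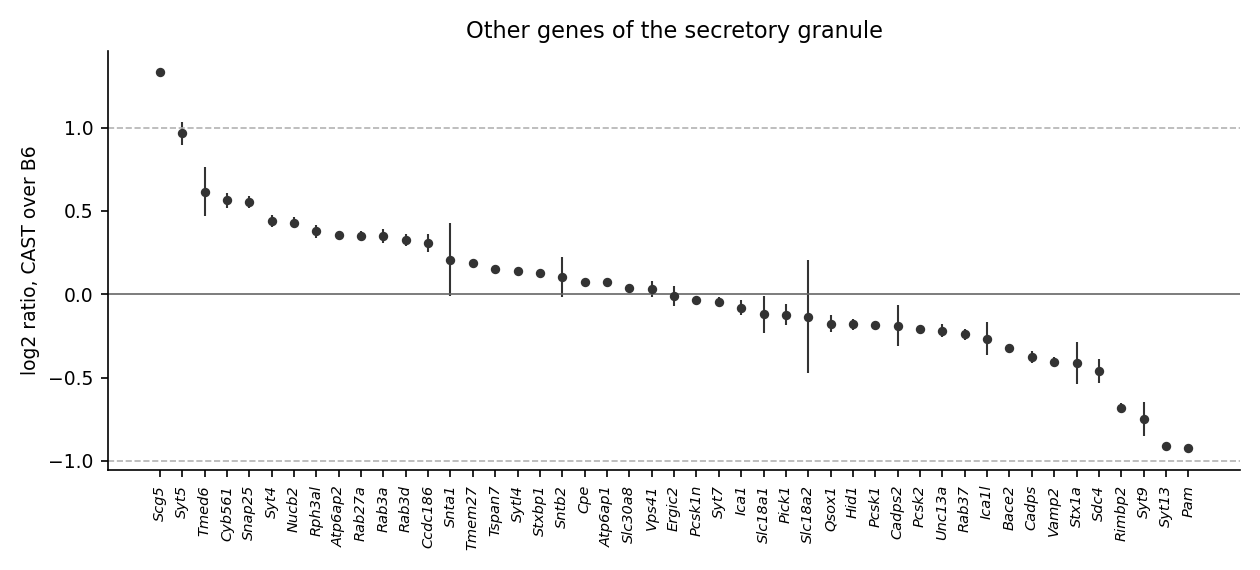
Log2 ratio of CAST over B6 (vertical axis, TMM-scaled counts) of 47 other granule genes, ordered from high to low, with 95% counting intervals and dashed lines at 2-fold. Scg5 at 1.33 is the single gene past 2-fold, and Pam at -0.92 is the lowest.

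All 11 listed regulators of granin and granule genes were within 2-fold, as were 86.8% of all genes. The repressor gene Rest, which silences granin genes outside neuroendocrine cells, had 0.29 TPM in CAST and 0.34 TPM in B6 (log2 0.14, -0.17 to 0.45). These levels rest on 204 counts in CAST and 152 in B6. Its cofactor gene Rcor1 was at -0.45. Among genes of CRE-binding factors and their coactivators, Creb1 was at log2 -0.16, Atf1 at -0.17, Crem at 0.36, Crtc1 at -0.09 and Crtc2 at 0.08. The endocrine factor genes Neurod1 and Insm1 were lower in CAST, at -0.53 and -0.39. The RNA-binding protein genes Ptbp1 and Celf4 were at 0.13 and 0.27. The median of the 11 genes was -0.09, and 5 were above 0.

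The marker lists were summed in each library by TPM, while signs and ranges are of the log2 ratio of TMM-scaled counts. Of 6 alpha cell markers 5 had a ratio below 0 (-0.95 to 0.13), and their summed level was 3.93% of transcripts in CAST and 6.59% in B6. Beta cell markers, 6 of 8 above 0 (-0.38 to 0.63), summed to 55.7% in CAST and 49.0% in B6. Without Ins1 and Ins2, left out after seeing the data, the other 6 summed to 2.43% in CAST and 3.13% in B6, the other way, and the median log2 ratio of all 8 was 0.15 by TMM and -0.20 by TPM. The 6 markers of delta, PP and epsilon cells, 4 of them below 0 (-1.37 to 1.76), summed to 0.997% in CAST and 1.37% in B6. No marker of these 3 lists was at 0 in either library.

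Among the hormone genes the log2 ratio was 0.60 for Ins2, 0.37 for Ins1, -0.36 for Gcg, -0.90 for Sst, 0.64 for Ppy, 0.04 for Pyy, -0.01 for Iapp and 1.76 for Ghrl. All 20 acinar genes tested were above 0 (0.17 to 10.61). Of these, Amy2a2, Amy2a3, Amy2a4 and Amy2a5 each had 269475 counts in CAST and log2 1.22, so they are not separate measurements. The top of the range was Amy2b, with 703091 counts in CAST and 368 in B6. The list of 21, with Amy2a1 at 0 in both libraries, summed to 3.37% of transcripts in CAST and 1.06% in B6. All 7 fibroblast and stellate markers were above 0 (0.62 to 2.77), at 0.00475% of transcripts in CAST and 0.00228% in B6. Neurons and chromaffin cells also use granins: of 11 neuron and Schwann markers 6 of 10 tested were above 0 (-0.65 to 2.24), and Dbh, which defines noradrenergic cells, had 2 counts in CAST and 3 in B6. That list summed to 0.0219% of transcripts in CAST and 0.0103% in B6, and held Th, a gene of catecholamine synthesis, with 175 TPM in CAST and 47.0 TPM in B6. Without Th, left out after seeing the data, the other 10 summed to 44.4 TPM in CAST and 56.4 TPM in B6, the other way. The part of these differences in the ratios of the 7 genes was not tested.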

How the data were processed

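Per the submitters' processing notes, the authors quantified transcripts with RSEM on GRCm38. The deposited value used as a count is the expected count per Ensembl transcript, and the deposited fraction is each transcript's share of all transcript molecules. It sums to 1 per file and, rescaled, is TPM; count over fraction followed GENCODE transcript length (Spearman 0.965 across 10747 transcripts). The sources used here name no aligner, annotation release or strand setting.

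Transcript counts were added up by gene ID, then rounded; 37607 of 38924 IDs matched a symbol (GENCODE M21). TMM factors (edgeR 4.0.16, R 4.3.3) were 0.947 for CAST and 1.056 for B6. Ratios had 0.5 added to scaled counts, with Clopper-Pearson intervals of the CAST share of counts; levels have exact Poisson intervals, and ratios between genes a normal interval on the log scale. The ratio and its counting interval were tested on simulated Poisson counts with known folds. TMM scaling and variation beyond counting error were not part of that simulation. Similar transcripts were sought with blastn 2.17.0 (at least 95% identity, 200 bases and 50% of the shorter transcript), and none was found for the 7 genes; Ptprn and Ptprn2 shared 75.6% identity over 985 bases. Alternatives were DESeq2 1.42.0 size factors, total counts with and without hormone and acinar genes, TPM with a pseudocount of 1, other count minimums, and a pseudocount of 5. All 7 genes are named, with every regulator and hormone gene and the 3 highest and 3 lowest other granule genes. The genes and lists were chosen with earlier results of these data known; the minimum of 10000 counts was chosen after seeing the data. Other software was matplotlib 3.10.9, pandas 2.3.3, scipy 1.17.1 and numpy 2.4.6 under Python 3.11.15. Planned descriptions of the proteins were not made, since protein sequences were not used here.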

Additional observations from a re-analysis of the deposited data

How the results depend on the processing

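The scaling of the libraries changed counts of genes past a fold. With total counts 1 member was past 2-fold towards CAST, as were 6.27% of all genes, since Vgf came to log2 0.99. On that scale 4 members were past 1.5-fold, as were 27.7% of all genes. Without hormone and acinar genes it was also 4, beside 25.3% of all genes. With total counts 2 of the 47 other granule genes were past 2-fold towards B6, beside 7.92% of all genes. By TPM 1 member was past 2-fold towards CAST (Scg2) and 1 towards B6 (Chga, log2 -1.12). Of all genes 3.14% were past 2-fold towards CAST and 4.99% towards B6 on that scale. By TPM 5 members were past 1.5-fold, beside 23.7% of all genes. Of the 47 other granule genes 0 were past 2-fold towards CAST and 2 towards B6. The median log2 ratio of the members was -0.36 with total counts (all genes -0.14), -0.23 with total counts without hormone and acinar genes (all genes -0.01) and -0.55 by TPM (all genes -0.26). Ptprn changed sign by TPM (-0.021), and the other 6 genes kept their sign in all 4 scaling alternatives. DESeq2 size factors and a pseudocount of 5 left the ratios of all 7 genes inside their counting intervals. Count minimums of 20 and 0 could not change the members past 2-fold, 2 towards CAST and 0 towards B6. All 7 genes had already passed the minimum of 100. The coding or main transcript alone could not change a ratio either, since each gene had 1 deposited transcript. Transcript shares by counts were 100% too, for the same reason. Counts per kilobase of the longest annotated transcript use the same length in both libraries. The length cancels in the CAST over B6 fold of each pair ratio, so that fold could hardly move. The ratios themselves did move, Ptprn over Ptprn2 most, to 0.828 in CAST and 0.544 in B6. That ratio would be lower still at the GENCODE M21 lengths of the deposited transcripts. There Ptprn would have 174 TPM in CAST and 177 TPM in B6, against 274 and 424 TPM for Ptprn2. Of all genes 13.2% were past 2-fold; with no count minimum 30.0% were, and of genes with 10000 or more counts 4.27%. Adding near-identical copies gave no value, since none was found. Variation between mice cannot be estimated from 1 library per strain.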
